A study of Mus musculus with 6 samples.

Results

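The genes described here are 9 that code for receptors with which hematopoietic stem cells (HSCs) home to the bone marrow (BM) and are held in their niche. They were taken by symbol from the deposited tables, namely Cxcr4, S1pr1, Itga4, Itga6, Itgb1, Itgal, Itgb2, Cd44 and Selplg, and all 9 were found among the 21878 listed genes. The values came from RNA-seq of HSCs sorted from the BM of wild-type (WT) C57BL/6 mice, with 3 libraries of vehicle-treated controls and 3 libraries of mice at day 1 after recombinant mouse IGF1 (labelled IGF-1), a growth factor given under the skin at 200 µg/kg. The sort took Lineage-, Sca-1+, c-Kit+, Flt3- and CD34- cells, and the age of the mice, the mice per library and whether replicates came from separate mice are not given in the sources used here, so that p-values measure the spread between these libraries, which may be technical. The treatment labels name control and IGF-1, whereas the description of the extraction speaks of IR (irradiated) mice, and the treatment labels were followed.

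Retention in the BM rests on a small set of receptors. CXCR4 follows the chemokine CXCL12, which stromal cells of the niche secrete, while S1PR1 follows sphingosine 1-phosphate, which is high in blood and lymph and draws cells out. Integrins are pairs of an alpha and a beta chain, of which alpha4 beta1 (VLA-4) binds VCAM1 and fibronectin, alpha6 beta1 binds laminin and alphaL beta2 (LFA-1) binds ICAM molecules. CD44 binds hyaluronan, and PSGL-1, the product of Selplg, presents the glycans on which cells roll along the selectins of BM vessels.

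Values are FPKM, that is, fragments of a gene divided by the gene's length and by library depth, so that levels can be set side by side between genes. Changes are log2 fold changes of FPKM + 1, IGF1 minus control, with 95% intervals and limma's p adjusted over the 10449 genes that reached 1 FPKM in 3 or more libraries. All 9 genes passed that filter. A gene was called where the fold change was over 2 and the adjusted p was under 0.05.

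Control replicate 2 stood apart from the other controls. Reads per gene in control replicates 1 and 3 differed by little more than sampling noise (mean chi-squared per gene 1.51, where noise alone gives about 1), as did those of IGF1 pairs (1.68 to 1.86). The same measure was 220 to 222 between control replicate 2 and the other controls, and 23.5 to 26.6 between it and the IGF1 libraries. Over the 3438 genes called once it was left out, its log2 value lay at a median of 80% of the way from control replicates 1 and 3 to the IGF1 mean. Its label was kept, no value was used to regroup it, and the result of each of the 9 genes and of each list is given with it and in a fit of the other 5 libraries. The libraries held 10298069 to 15090863 reads on listed genes, as recovered from the steps of the values. The FPKM of all listed genes summed to 466619, 635111 and 466135 in the controls and to between 677826 and 680285 in the IGF1 libraries. Each gene's share of that sum was not tested. Markers of the sort went partly against the gate. Cd34 stood at 230 to 640 FPKM and Flt3 at 117 to 188 FPKM, although cells with these proteins on their surface were gated out. These genes moved with the same libraries as the 9. Kit, which codes for the c-Kit of the gate, was at 105, 31.4 and 104 FPKM in the controls and at 24.2 to 24.6 FPKM in the IGF1 libraries. Cd34 was at 640, 265 and 634 FPKM and at 230 to 238 FPKM, and Flt3 at 117, 172 and 117 FPKM and at 183 to 188 FPKM. Ly6a, which codes for the Sca-1 of the gate, went the other way from Kit. It was at 219, 615 and 231 FPKM in the controls and at 374 to 387 FPKM in the IGF1 libraries, with control replicate 2 the highest of all. In the fit of 5 libraries Kit and Cd34 were called lower, while Ly6a was at 0.76 on the log2 scale and was not called. The part of these genes in the results below was not tested. All 14 genes of a list of HSC identity passed the filter. Among them Slamf1 (0.736 to 2.41 FPKM) and Fgd5 (0.277 to 1.68 FPKM), both markers of HSCs, were low. The name HSC is therefore used as the labels give it.

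Of the 9 genes, 0 were called by limma in the 6 libraries, against 6.61% of all genes tested (1.98% higher and 4.63% lower in the IGF1 group). The groups did not overlap for 3 of the 9 (Cxcr4, Itgal and Selplg), against 59.4% of all genes. An unadjusted p under 0.05 was found for 3 of the 9 (Cxcr4, Itgb1 and Selplg), against 53.4% of all genes, and an adjusted p under 0.05 for Cxcr4 alone, against 20.4%. The limma voom test on recovered reads also called 0 of the 9. With control replicate 2 left out, 4 of the 9 (Itga6, Itgb1, Itgb2 and S1pr1) were called, all of them lower in HSCs of IGF1-treated mice, where 20.6% of all genes were called lower and 32.9% were called in either direction. An adjusted p under 0.05 alone was reached by 7 of the 9 in that fit, and by 88.5% of all genes, since the spread there is that of control replicates 1 and 3 and of the IGF1 libraries alone. The median log2 fold change of the 9 genes was -0.57 in the 6 libraries and -0.80 in the other 5, where the median of all genes tested was -0.18 and -0.24. Under 75th percentile scaling the median of all genes was 0.06, and 65.1% of the called genes were higher in the IGF1 group in place of 30%. In these bulk libraries fewer cells of a type and less RNA per cell cannot be told apart.

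**Figure D1:**
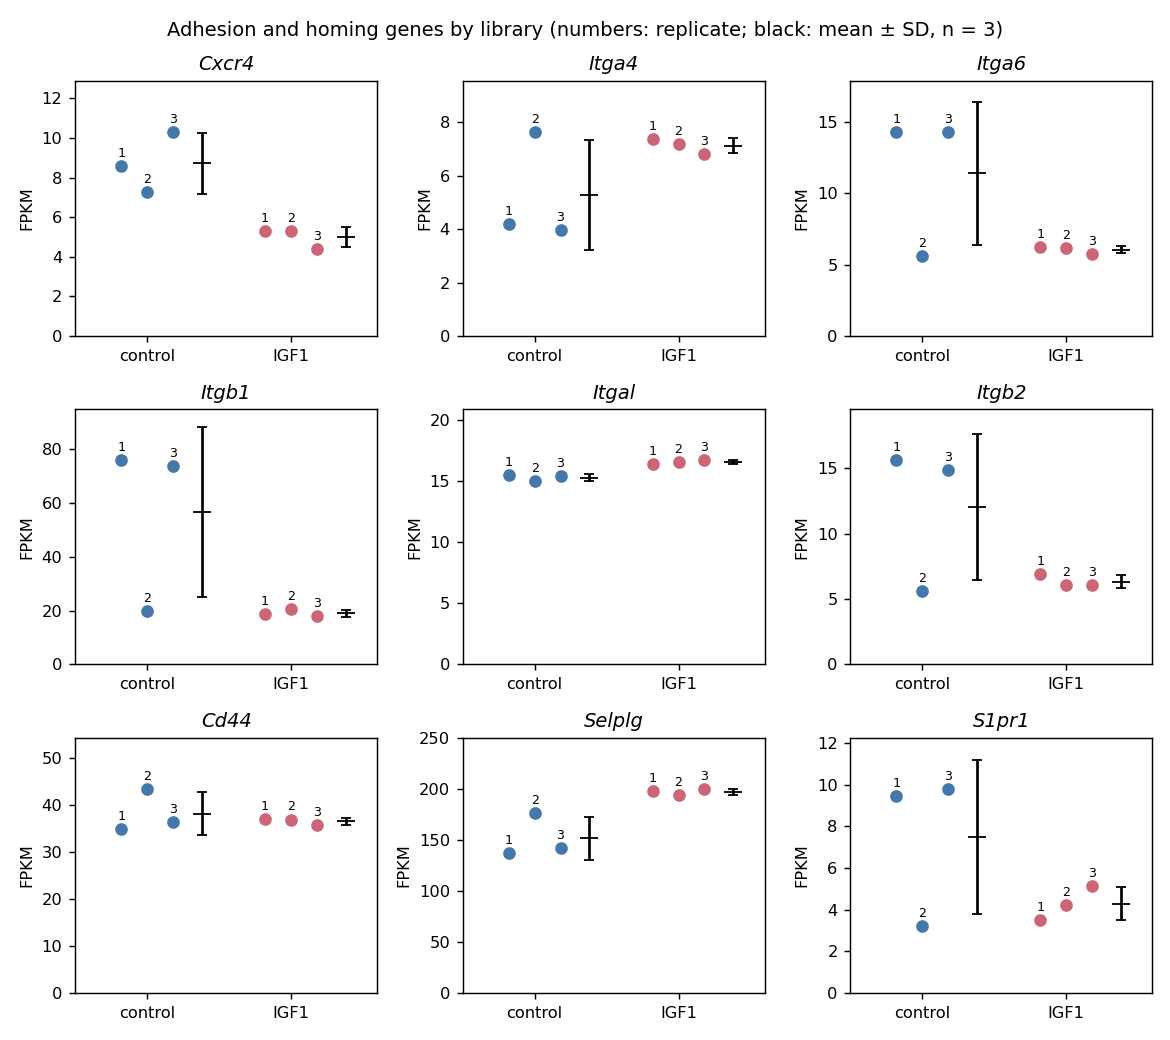
FPKM of each of the 9 genes in each library (points, numbered by replicate; blue, control; red, IGF1), with the group mean and SD (black, n = 3) on axes that start at 0. Control replicate 2 sits with the IGF1 libraries for Itga4, Itga6, Itgb1 and Itgb2, while for Cxcr4 and Selplg it lies between the other controls and IGF1.

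The set of RefSeq promoters used here (build GRCm38.p6) held 4 of the 9 genes. Their windows are shown so that the sequence before genes of unlike response can be read side by side. Itgb1 was lowest relative to controls 1 and 3, its partner Itga4 went the other way, Cxcr4 was separated between the groups in all libraries, and Cd44 held no direction. Each window is the 250 bases before the annotated start, written 5′ to 3′ on the strand of the gene, and the capitals mark GC boxes (GGGCGG, or CCGCCC on the other strand). Itgb1 lies at chr8:128685404-128685653 (plus strand), Itga4 at chr2:79255176-79255425 (plus strand), Cxcr4 at chr1:128592300-128592549 (minus strand) and Cd44 at chr2:102901666-102901915 (minus strand).
Itgb1: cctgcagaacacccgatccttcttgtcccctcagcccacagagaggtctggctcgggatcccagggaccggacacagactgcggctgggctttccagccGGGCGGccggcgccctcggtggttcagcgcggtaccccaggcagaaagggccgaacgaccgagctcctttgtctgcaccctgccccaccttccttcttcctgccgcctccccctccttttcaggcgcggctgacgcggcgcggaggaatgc
Itga4: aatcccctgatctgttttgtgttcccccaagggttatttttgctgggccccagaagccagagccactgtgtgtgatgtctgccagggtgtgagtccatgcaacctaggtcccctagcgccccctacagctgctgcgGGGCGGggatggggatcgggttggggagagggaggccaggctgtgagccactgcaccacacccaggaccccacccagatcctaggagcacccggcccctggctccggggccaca
Cxcr4: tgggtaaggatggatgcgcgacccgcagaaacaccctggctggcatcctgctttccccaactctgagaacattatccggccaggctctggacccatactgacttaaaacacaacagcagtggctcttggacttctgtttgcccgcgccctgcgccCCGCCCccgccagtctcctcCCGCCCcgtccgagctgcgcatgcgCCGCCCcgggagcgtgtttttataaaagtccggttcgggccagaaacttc
Cd44: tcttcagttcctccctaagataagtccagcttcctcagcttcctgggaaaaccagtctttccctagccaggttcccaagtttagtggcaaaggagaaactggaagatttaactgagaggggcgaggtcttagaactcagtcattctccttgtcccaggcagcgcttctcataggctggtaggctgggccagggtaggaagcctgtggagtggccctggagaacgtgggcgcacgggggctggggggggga
The windows of 3 genes that differ in response hold a GC box, with 3 matches before Cxcr4, 1 before Itga4 and 1 before Itgb1, whereas Cd44 had 0. Over 32851 promoters of the same length, 32.7% held at least 1 match. The letters GAGGAA (or TTCCTC), the core of PU.1-type ETS sites, occurred 2 times before Cd44 and 1 time before Itgb1, and in 23.3% of all promoters. The forkhead letters GTAAACA (or TGTTTAC), which FOXO factors bind, were in 0 of these 4 windows and in 3.2% of all promoters. GC content was 68.0% before Itgb1, 64.0% before Itga4, 61.2% before Cxcr4 and 56.4% before Cd44. A match describes the letters only.

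Cxcr4, the receptor for the retention signal of the niche, was lower in HSCs after IGF1 than after vehicle. It stood at 8.59, 7.25 and 10.3 FPKM in control replicates 1, 2 and 3, and at 5.31, 5.29 and 4.40 FPKM in the IGF1 replicates. Every control was above every IGF1 library, which held for 37.4% of all genes tested in this direction. The means were 8.72 ± 1.54 and 5.0 ± 0.523 FPKM (SD, n = 3), and the log2 fold change was -0.69 (SE 0.16, interval -1.08 to -0.30). The limma adjusted p was 0.0429, so that the gene passed the p threshold but not the fold of 2. That p needs each library other than control replicate 2, since 0 of the 9 genes had an adjusted p under 0.05 without control replicate 1, control replicate 3 or any 1 IGF1 library. It was 0.0507 with no filter on low values, 0.0547 under 75th percentile scaling, 0.0607 with trends on transcript length and GC content removed and 0.0855 with the replicate number as a block. Control replicate 2 was the lowest control and lay 42% of the way to the IGF1 mean. In the fit of 5 libraries the log2 fold change was -0.80 (SE 0.09, adjusted p = 2.1e-05), a level 1.89-fold lower than in control replicates 1 and 3. Cxcr4 rested on 105 to 308 reads per library, which gives a counting error of 9.8% in the lowest library and 5.7% in the highest. The gene is on chromosome 1 (128588199 to 128592293, minus strand, GRCm38).

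S1pr1, the receptor for the exit signal, did not pass the test in 6 libraries. Its level was 9.44, 3.23 and 9.79 FPKM in the controls, against 3.52, 4.23 and 5.12 FPKM in the IGF1 libraries. Control replicate 2 was below every IGF1 library, and the other controls were above every one of them. The log2 fold change was -0.57 (SE 0.39, interval -1.53 to 0.38, adjusted p = 0.249). Once control replicate 2 was left out it was -1.02 (SE 0.11, interval -1.27 to -0.77, adjusted p = 1.1e-05), which was called, at 2.24-fold below control replicates 1 and 3. With trends on transcript length and GC content removed in the same 5 libraries it was -0.41, under the fold of 2. S1pr1 had the widest relative spread among the IGF1 libraries (4.29 ± 0.804 FPKM, SD, n = 3) on 132 to 200 reads there. Both receptors thus had lower means in the IGF1 group, and S1pr1 lies on chromosome 3 (115710433 to 115715072, minus strand, GRCm38).

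The beta1 chain Itgb1, shared by VLA-4, the laminin receptor and other integrins, had the largest change of the 9 genes in log2 terms. It was at 75.7, 20 and 73.8 FPKM in the controls and at 18.6, 20.4 and 18 FPKM in the IGF1 libraries. Control replicate 2 lay inside the range of the IGF1 libraries, so that the groups overlapped. In the 6 libraries the log2 fold change was -1.31 (SE 0.51, interval -2.56 to -0.05), with an adjusted p of 0.0859. In the other 5 it was -1.92 (SE 0.05, interval -2.05 to -1.80, adjusted p = 5e-10), and the level in HSCs of IGF1-treated mice was 3.93-fold below that of control replicates 1 and 3. Only 2.5% of all genes tested had a log2 fold change as low or lower in that fit. Of the 9 genes it alone stayed called in those 5 libraries after 75th percentile scaling (-1.59), quantile normalization (-1.73) or removal of length and GC trends (-1.13). Itgb1 was covered by 965 to 5086 reads and lies on chromosome 8 (128685654 to 128733200, plus strand, GRCm38).

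Itga4, the alpha chain that pairs with Itgb1 in VLA-4, had a higher mean in the IGF1 group. It stood at 4.20, 7.64 and 3.98 FPKM in the controls and at 7.37, 7.19 and 6.83 FPKM in the IGF1 libraries. Control replicate 2 was the highest library of all 6, and the other controls were below every IGF1 library. The log2 fold change was 0.42 (SE 0.23, interval -0.15 to 0.99, adjusted p = 0.174) in the 6 libraries. Without that library it was 0.68 (SE 0.06, interval 0.53 to 0.82, adjusted p = 3.9e-06), or 1.75-fold, short of the fold of 2. Its longest transcript, of 9767 bases, is the longest of the 9 genes, and with length and GC trends removed the value in 5 libraries was 0.82. Itga4 spans 79255426 to 79333123 on chromosome 2 (plus strand, GRCm38).

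Itga6, the alpha chain of the laminin receptor, followed Itgb1 in direction. Its values were 14.3, 5.64 and 14.3 FPKM in the controls, against 6.21, 6.15 and 5.78 FPKM in the IGF1 libraries. Control replicate 2 was the lowest of the 6, with the other controls more than 2-fold above every IGF1 library. The log2 fold change was -0.72 (SE 0.34, interval -1.56 to 0.12, adjusted p = 0.13) in the 6 libraries and -1.12 (SE 0.06, interval -1.25 to -0.99, adjusted p = 3.3e-08) in the other 5, where it was called at 2.37-fold lower. Removal of length and GC trends left -0.62 in the 5 libraries, below the fold of 2. The gene is on chromosome 2 (71745616 to 71858416, plus strand, GRCm38).

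Because alpha and beta chains act as pairs, their FPKM were also set against each other within each library, where the scaling of the library cancels. Trends on transcript length and GC content do not cancel in such a ratio. Their removal in the 5 libraries took Itga4 from 0.68 to 0.82 and Itgb1 from -1.92 to -1.13, and the ratios below are without it. The ratio of Itga4 to Itgb1 was 0.0554, 0.382 and 0.0539 in the controls and 0.397, 0.352 and 0.380 in the IGF1 libraries. Control replicate 2 thus lay within the IGF1 range for this ratio, and the mean of the other controls was 0.0547 against 0.376 ± 0.0228 (SD, n = 3) in the IGF1 group. The ratio of Itga6 to Itgb1 was 0.189, 0.282 and 0.194 in the controls and 0.334, 0.301 and 0.322 in the IGF1 libraries. Here all controls were below all IGF1 libraries, although control replicate 2 was nearer to the IGF1 group. The Itgb1 transcript exceeded that of either alpha chain in every library. These are ratios of RNA, and surface protein was not measured in these libraries.

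**Figure D2:**
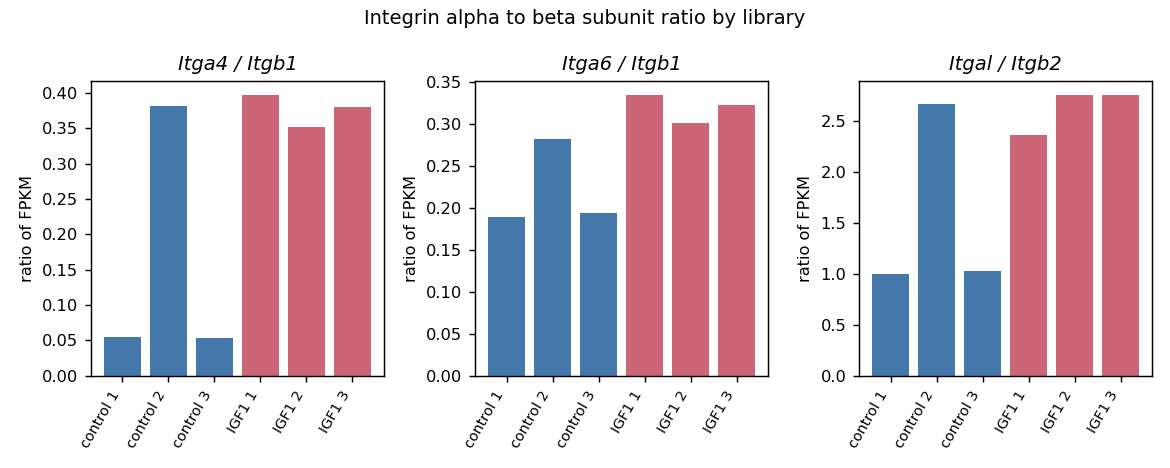
Ratio of alpha chain to beta chain FPKM in each library (bars from 0; blue, control; red, IGF1; 1 bar per library and no error bars). Itga4 to Itgb1 is about 0.05 in control replicates 1 and 3 and between 0.352 and 0.397 in control replicate 2 and the IGF1 libraries.

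Itgal, the alphaL chain of LFA-1, was nearly level across the libraries. It stood at 15.5, 15.0 and 15.4 FPKM in the controls and at 16.4, 16.6 and 16.7 FPKM in the IGF1 libraries. All IGF1 libraries were above all controls, which held for 21.9% of all genes tested in this direction. The size of that gap was small, with a log2 fold change of 0.11 (SE 0.09, interval -0.12 to 0.33, adjusted p = 0.35), and of 0.09 (interval -0.01 to 0.20, adjusted p = 0.079) in the fit of 5 libraries. Scaling to the 75th percentile gave 0.37 with an adjusted p of 0.049 in the 6 libraries. Itgal lies on chromosome 7 (127296260 to 127335138, plus strand, GRCm38).

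Itgb2, the beta chain of LFA-1 and of the other leukocyte integrins, had lower means in the IGF1 group. Its values were 15.6, 5.64 and 14.9 FPKM in the controls, against 6.92, 6.05 and 6.05 FPKM in the IGF1 libraries. Control replicate 2 was below every IGF1 library. The log2 fold change was -0.72 (SE 0.37, interval -1.62 to 0.18, adjusted p = 0.15) in the 6 libraries, and -1.15 (SE 0.07, interval -1.30 to -0.99, adjusted p = 1e-07) in the other 5, a called change of 2.4-fold. With length and GC trends removed it was -0.76 in those 5 libraries. The ratio of Itgal to Itgb2 was 0.993, 2.66 and 1.03 in the controls and 2.36, 2.75 and 2.75 in the IGF1 libraries, with control replicate 2 once more inside the IGF1 range. For LFA-1, as for VLA-4, the beta chain was lower relative to its alpha chain in the IGF1 libraries than in control replicates 1 and 3. Itgb2 is on chromosome 10 (77530252 to 77565708, plus strand, GRCm38).

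Selplg, which codes for PSGL-1, was the most abundant of the 9 transcripts in every library. It reached 137, 176 and 142 FPKM in the controls, against 198, 194 and 200 FPKM in the IGF1 libraries. The groups did not overlap, and control replicate 2 was the highest control. The log2 fold change was 0.39 (SE 0.13, interval 0.06 to 0.71) with an adjusted p of 0.0684. In 5 libraries it was 0.50 (SE 0.03, interval 0.43 to 0.57, adjusted p = 1.1e-07), a 1.41-fold difference that is short of the fold of 2. Scaling to the 75th percentile gave 0.66 in the 6 libraries and 0.84 in the 5, whereas quantile normalization gave 0.26 and 0.30. The summed FPKM of all genes was higher in the same libraries as Selplg, and its share of that sum was not tested. The gene lies on chromosome 5 (113818536 to 113832644, minus strand, GRCm38) and was covered by 5709 to 7260 reads per library.

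Cd44, the hyaluronan receptor, showed no difference that held a direction. It stood at 34.8, 43.4 and 36.3 FPKM in the controls and at 37.0, 36.9 and 35.7 FPKM in the IGF1 libraries. The IGF1 libraries lay within the range of the controls, whose highest value was again control replicate 2. The log2 fold change was -0.06 (SE 0.12, interval -0.34 to 0.23, adjusted p = 0.694) in the 6 libraries, whereas it was 0.04 (interval -0.05 to 0.13, adjusted p = 0.38) in the 5, 0.21 after either 75th percentile scaling or quantile normalization of the 6, and 0.32 with length and GC trends removed. Its direction was reversed in 9 of 22 alternatives, whereas each of the other 8 genes kept its direction in all 22. Cd44 lies on chromosome 2 (102811141 to 102901665, minus strand, GRCm38).

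**Figure D3:**
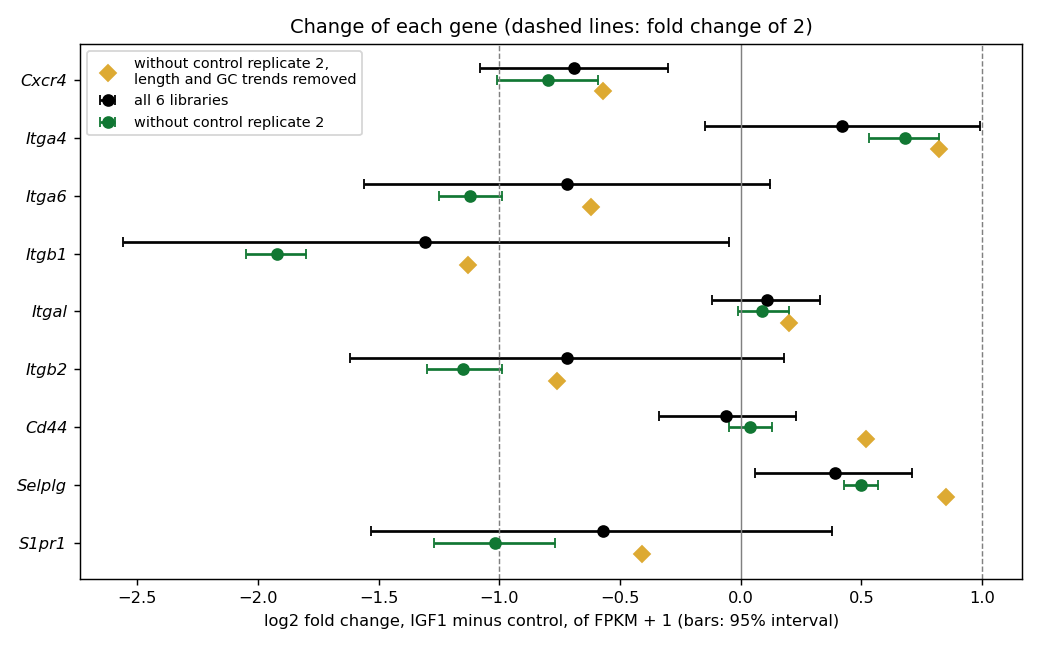
Log2 fold change of each of the 9 genes, IGF1 minus control, on FPKM + 1, with 95% intervals for all 6 libraries (black) and without control replicate 2 (green), and the value after length and GC trends were removed from those 5 libraries (yellow, drawn without an interval). Dashed lines mark a fold change of 2, and Itgb1 is the gene whose 3 values all lie below it.

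In order of level, the control means ran from Selplg (152 ± 21.1 FPKM) through Itgb1 (56.5 ± 31.6), Cd44 (38.2 ± 4.60), Itgal (15.3 ± 0.264), Itgb2 (12 ± 5.55), Itga6 (11.4 ± 5.02), Cxcr4 (8.72 ± 1.54) and S1pr1 (7.49 ± 3.69) to Itga4 (5.27 ± 2.06; SD, n = 3 each). Every pair of neighbours from Itgb1 down overlapped in single libraries, apart from Cd44 and Itgal. In the IGF1 group Cd44 (36.5 ± 0.730 FPKM) stood above Itgb1 (19.0 ± 1.29), and no library of either overlapped the other. Itga4 (7.13 ± 0.274 FPKM) stood last in the controls and here above Itgb2 (6.34 ± 0.504) and Itga6 (6.05 ± 0.228), though its lowest library was below the highest of Itgb2. Among all 10449 genes tested, the mean level of Selplg was at percentile 94.4, those of Cd44 and Itgb1 at 78.4 and 74.8, and those of the other 6 between 33.3 and 60.9. The genes of this group were therefore well above the filter, with 105 to 7260 reads per gene and library.

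The 9 genes fell into kinds by where control replicate 2 lay between control replicates 1 and 3 (0%) and the IGF1 mean (100%). It was at or near the IGF1 side for Itgb1 (96%), Itga6 (108%), Itgb2 (112%), Itga4 (113%) and S1pr1 (131%). For Selplg it was at 67% and for Cxcr4 at 42%, while for Itgal it was on the far side of the other controls (-43%). For Cd44 the groups were too close for a position to be read. Over the 3438 genes called without it, 93.3% were above 50% and 13.6% at or beyond the IGF1 mean.

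The profile of each gene over the 6 libraries was set against those of all other tested genes, as the root mean square (RMS) difference of centred log2 values. Nearest to Itgb1 was Pdk1 (RMS 0.040), a kinase that inhibits pyruvate dehydrogenase, at 38.9, 10.5 and 39.6 FPKM in the controls, against 9.86, 10.4 and 9.74 FPKM in the IGF1 libraries. Nearest to Itga6 was Add1 (0.025), a protein of the membrane skeleton, and nearest to Itga4 was Ndufb8 (0.026), a subunit of respiratory complex I. Prpf39, a splicing factor, was nearest to Itgb2 (0.039), Stambpl1 to Itgal (0.016), H13 to Selplg (0.023), Zfp329 to Cd44 (0.022), 9930104L06Rik to Cxcr4 (0.053) and 1700066M21Rik to S1pr1 (0.061). Within the adhesion and homing genes described next, Itga6 and Itgb2 were each nearest to the other (0.056), although they are chains of different integrins. Rhoa, a GTPase of cell movement, was nearest to Cxcr4 (0.087), Gpr183, an oxysterol receptor, to Itga4 (0.040), Fut8 to Itgb1 (0.069), Zyx to Itgal (0.043), Syk to Selplg (0.041), Itgb3 to Cd44 (0.061) and Glg1 to S1pr1 (0.143). All libraries enter each likeness, so that the gap of control replicate 2 is part of it.

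Other genes of adhesion and homing were described by 5 lists of 164 entries, of which 124 were tested. In the 6 libraries 2 were called higher and 7 lower, or 7.26% against 6.61% of all genes, and their median log2 fold change was -0.40 against -0.18. Of all genes tested, 1.98% were called higher and 4.63% lower in the 6 libraries, and 12.3% and 20.6% without control replicate 2. These shares stand beside the counts of each list below. With control replicate 2 left out, 7 of the 124 were called higher and 37 lower (35.5%, against 32.9% of all genes). The count was 0 when any other library was left out, namely control replicate 1, control replicate 3 or any of the IGF1 libraries. The calls in the 6 libraries named below thus need each of those libraries.

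The other integrin chains gave no call. Of 21 listed, 8 were tested and 0 were called by limma in the 6 libraries or in the other 5, with medians of -0.11 and -0.32. An unadjusted p under 0.05 was found for 1 of the 8 in the 6 libraries and for 6 of the 8 in the 5, and voom called 0 in either. Itga2b, the alpha chain of the platelet integrin, was at 32.2, 16.8 and 32.3 FPKM in the controls, against 17.9 to 19.3 FPKM in the IGF1 libraries. Itga5, which pairs with Itgb1 in a fibronectin receptor, was at 8.81, 3.64 and 8.99 FPKM against 5.19 to 5.89 FPKM. Itgb7, another partner of Itga4, was at 11.7, 10.2 and 12.3 FPKM against 12.9 to 13.7 FPKM. Itgb1 stood above Itgb7 in every library, by far more in control replicates 1 and 3 than in the others. These 3 chains were chosen after their values were seen.

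Among 34 tested genes that switch integrins on or link them to the cytoskeleton, 1 was called higher and 1 lower, with a median of -0.32. Rasgrp2, the exchange factor that activates RAP1, rose by 1.03 on the log2 scale (SE 0.27, adjusted p = 0.0481), from 17.4, 34.0 and 17.1 FPKM in the controls to 46.3, 44.2 and 45.3 FPKM. Skap2, an adaptor in integrin signalling, fell by 1.17 (SE 0.25, adjusted p = 0.0388), from 175, 97.0 and 172 FPKM to 62.0, 60.2 and 66.6 FPKM. With length and GC trends removed, Rasgrp2 was at 0.91 in the 6 libraries and 1.18 in the 5. Skap2 was then at -0.75 in the 6 and -0.94 in the 5, under the fold of 2 in both. In the fit of 5 libraries without that step Rasgrp2 was at 1.34 and Skap2 at -1.45. There 4 genes of the list were called higher and 8 lower (median -0.46), with Rap1b itself at 289, 108 and 287 FPKM in the controls, against 79.7 to 84.3 FPKM in the IGF1 libraries (log2 fold change -1.34, adjusted p = 0.0549 in the 6; -1.81 in the 5). Tln1, which codes for talin and binds the tails of beta chains, was at 24.6, 28.5 and 25.2 FPKM against 33.6, 34.2 and 33.8 FPKM (0.37, adjusted p = 0.0498 in the 6; 0.43, adjusted p = 3e-06 in the 5). Its direction did not hold once length and GC trends were removed, at -0.03 in the 6 and -0.08 in the 5. Fermt3, or kindlin-3, the partner of talin in blood cells, was at 184, 99.9 and 186 FPKM against 103 to 111 FPKM (-0.48, adjusted p = 0.161 in the 6; -0.78, adjusted p = 1.5e-08 in the 5). The genes that activate integrins thus held members with means on either side, and Rap1b, Tln1 and Fermt3 were chosen after their values were seen.

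Of 28 tested chemoattractant and lipid receptors and their signalling genes, 1 was called higher and 1 lower, with a median of -0.12. Cx3cr1, the receptor for fractalkine, rose by 1.28 on the log2 scale (SE 0.32, adjusted p = 0.0459), from 0.815, 3.23 and 1.19 FPKM to 4.97, 5.79 and 5.0 FPKM. Rgs18, which damps signals of G protein-coupled receptors, fell by 1.15 (SE 0.27, adjusted p = 0.0430), from 109, 56.1 and 107 FPKM to 40.2, 37.4 and 38.5 FPKM. In 5 libraries Cx3cr1 was at 1.65 and Rgs18 at -1.46, and 1 gene of the list was called higher and 9 lower (median -0.20). Among those 9 were S1pr2, the sphingosine 1-phosphate receptor that opposes migration, at 8.29, 4.74 and 8.01 FPKM in the controls, against 2.99 to 3.46 FPKM in the IGF1 libraries, and Gnai3, the inhibitory G protein alpha chain, at 77.9, 22.1 and 76.5 FPKM against 17.6 to 19.2 FPKM. S1pr2 and S1pr1 were thus both lower in the IGF1 libraries than in control replicates 1 and 3. S1pr2 and Gnai3 were chosen after their values were seen.

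The list of selectins and of enzymes that build selectin ligands held the most calls of the 5 lists in the 6 libraries, though not in the fit of 5 libraries. It had 5 lower and 0 higher of 22 tested, and a median of -0.67. The 5 were Hcar2, C1galt1c1, Fut4, C1galt1 and Tpst1. C1galt1c1, the chaperone of the core 1 O-glycan enzyme, fell by 1.27 on the log2 scale (SE 0.18, adjusted p = 0.0287), from 24.8, 16.4 and 24.1 FPKM to 7.82, 8.20 and 8.90 FPKM. Fut4, a fucosyltransferase that helps to make the sialyl Lewis X glycan, fell by 1.33 (SE 0.21, adjusted p = 0.0290), from 4.77, 2.53 and 4.54 FPKM to 0.903, 0.843 and 1.02 FPKM. In both genes control replicate 2 was below the other controls and above every IGF1 library. Hcar2 is a niacin receptor and makes no selectin ligand, and fell by 1.14 (SE 0.11, adjusted p = 0.0286). C1galt1, the core 1 enzyme itself, fell by 1.37 (SE 0.26, adjusted p = 0.0363), and Tpst1, a tyrosine sulfotransferase for proteins such as PSGL-1, fell by 1.19 (SE 0.23, adjusted p = 0.0367); these 2 fall outside the rule for named genes and were named after their values were seen. Fut7, the other fucosyltransferase of leukocyte selectin ligands, was at 23.1, 31.6 and 22.4 FPKM in the controls, against 34.0, 35.1 and 35.5 FPKM in the IGF1 libraries (0.44, adjusted p = 0.0683 in the 6; 0.59, adjusted p = 3.9e-07 in the 5), also chosen after its values were seen. Selplg, the protein backbone that these enzymes modify, had its higher mean in the IGF1 group while 4 of the enzymes or chaperones were called lower. In the fit of 5 libraries the log2 fold changes were -1.45 for C1galt1c1, -1.56 for Fut4, -1.19 for Hcar2, -1.66 for C1galt1 and -1.43 for Tpst1, all called. There 10 genes of this list were called lower and 1 higher, with a median of -0.96, and 8 lower and 1 higher after length and GC trends were removed.

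Of 32 other tested adhesion genes 0 were called by limma in the 6 libraries, with 24 at an unadjusted p under 0.05, 9 at an adjusted p under 0.05 and a median of -0.49, while voom called 4. In 5 libraries 1 was called higher and 10 lower (median -0.60). Vcam1, which codes for a ligand of VLA-4 and is also made by some blood progenitors, was at 9.73, 1.22 and 8.82 FPKM in the controls, against 0.784, 0.806 and 0.753 FPKM in the IGF1 libraries (-1.79, adjusted p = 0.0674 in the 6; -2.53 in the 5). It was chosen after its values were seen. Control replicate 2 was near the IGF1 libraries, though above them. Esam, a junction molecule of HSCs and endothelium, was at 22.5, 15.5 and 21.0 FPKM against 12.8, 15.0 and 14.3 FPKM (-0.44, adjusted p = 0.0799 in the 6; -0.60, adjusted p = 1.5e-05 in the 5), and was likewise chosen later.

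**Figure D4:**
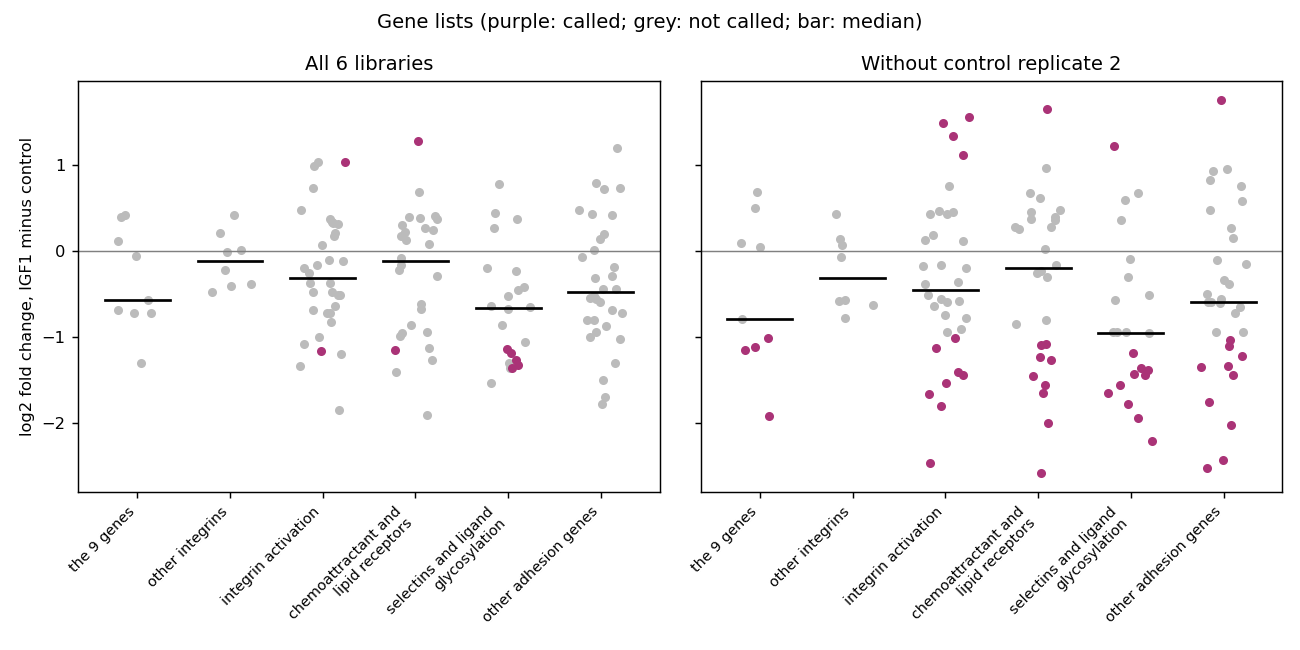
Log2 fold change (IGF1 minus control, FPKM + 1) of each tested gene in the 9 genes and the 5 lists, in all 6 libraries (left) and without control replicate 2 (right); purple points passed the fold of 2 and the adjusted p of 0.05, grey points did not, and bars are medians. The selectin and glycosylation list has the lowest median in both panels, at -0.67 and -0.96.

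The fold change moved with transcript length over all genes, which bears on these genes because their longest transcripts run from 1805 bases (Cxcr4) to 9767 bases (Itga4). In the fit of 5 libraries, genes in 5 bins of nearly equal number were compared, and those of up to 1896 bases had a median log2 fold change of 0.54, those of 1896 to 2813 bases -0.34, those of 2813 to 3751 bases -0.58, those of 3751 to 5027 bases -0.57, and those over 5027 bases -0.16. S1pr1 (3046 bases), Itgb2 (2970), Itgb1 (3815) and Itga6 (4310), the 4 called genes, lie in the bins where the median of all genes is lowest. The other 5 genes (Cxcr4, Selplg, Itgal, Cd44 and Itga4) lay on the other side of 0 from the median of their bin. Removing the trends on length and GC content from each of those 5 libraries left 1 of the 9 genes called (Itgb1), where 20.8% of all genes were called. The median of the 9 genes was then -0.41, that of the listed adhesion genes described above -0.20 and that of all genes -0.05. The part of length in the differences of single genes was not tested further.

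**Figure D5:**
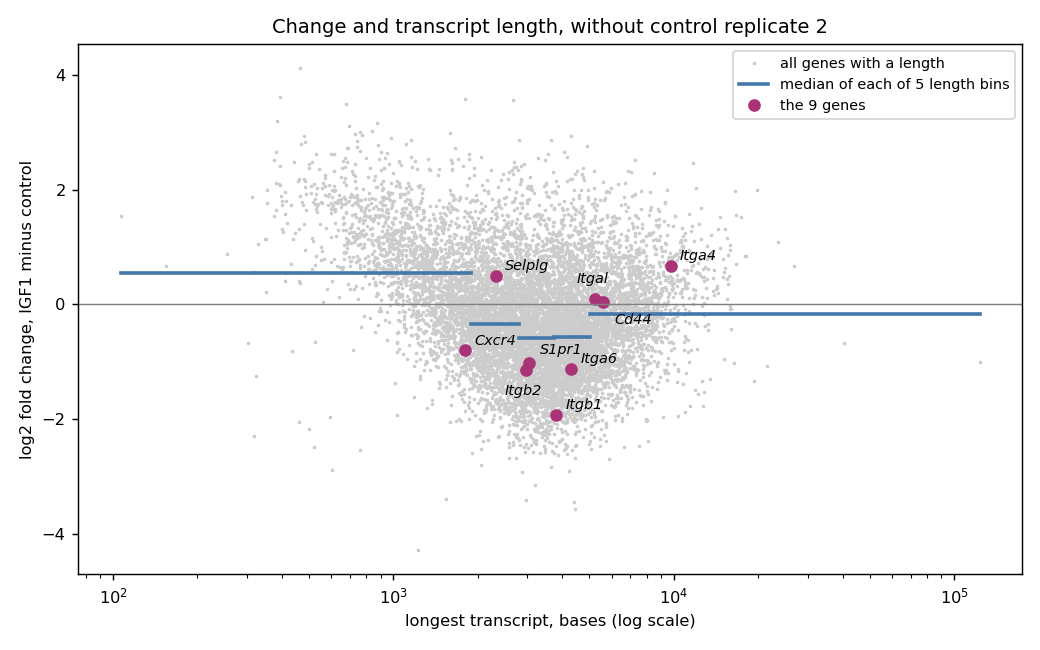
Log2 fold change (IGF1 minus control, FPKM + 1, without control replicate 2) against the length of the longest transcript in bases (log axis) for all tested genes with a length (grey), with the median of each of 5 length bins (blue) and the 9 genes (purple). Cxcr4 and Selplg lie on opposite sides of 0 although both are shorter than 2813 bases.

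Markers of other cell types moved with the same libraries, and their part in the values above was not tested. The summed FPKM of 19 neutrophil and monocyte genes was 3690, 6210 and 3740 in the controls and 6200 to 6240 in the IGF1 libraries, with Elane at 92.8, 576 and 92.4 FPKM against 692 to 709 FPKM. Within that list 4 late granule genes (Ngp, Camp, S100a8 and S100a9) were called lower in the 6 libraries, and Ly6g, which defines mature neutrophils, was at 0 to 0.2 FPKM. The 13 B cell genes summed to 352, 907 and 348 in the controls and 898 to 929 in the IGF1 libraries, with Ms4a1 of mature B cells at 0.0429 to 0.339 FPKM. The 13 T and NK cell genes summed to 402, 822 and 392 against 809 to 826, most of it from Nkg7, while Cd3e was at 0 to 0.206 FPKM. The 12 erythroid genes summed to 522, 377 and 524 against 274 to 291. The 12 megakaryocyte genes summed to 80.6, 88.0 and 79.9 against 112 to 121, where Gp1bb and Treml1 were called higher and Mylk4 was listed at 0 in every library. The 14 genes of HSC identity summed to 625, 802 and 644 against 539 to 557. Ly6a alone made up 219, 615 and 231 of these sums in the controls and 374 to 387 in the IGF1 libraries. The high sum of control replicate 2 thus came mostly from that 1 gene. Of the 14 genes, 11 had a log2 fold change below 0 in the 6 libraries and 3 above. By limma in the 6 libraries the B cell, T and NK cell, erythroid and HSC identity lists gave 0 calls, with 7 of 10, 0 of 6, 2 of 9 and 6 of 14 tested genes at an unadjusted p under 0.05, and voom called 1 gene of HSC identity. In the fit of 5 libraries, from which the 4 calls among the 9 genes come, these lists held calls too, beside 12.3% of all genes called higher and 20.6% called lower. There 5 of 10 B cell genes and 2 of 6 T and NK cell genes were called higher, and 2 of 9 erythroid genes and 5 of 14 HSC identity genes were called lower. Of 17 neutrophil and monocyte genes 5 were called higher and 6 lower, and of 9 megakaryocyte genes 4 higher and 1 lower. In 4 of these 6 lists the sum in control replicate 2 was on the side of the IGF1 libraries.

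Some genes of niche cells were at or near 0, while others were not. Of 20 niche genes only 5 were tested, of which 0 were called by limma or voom in the 6 libraries (3 at an unadjusted p under 0.05) and 3 were called lower in the 5. The summed level of the 20 genes was 123, 40.4 and 122 FPKM in the controls, against 38.9 to 42.2 FPKM in the IGF1 libraries. It came mostly from Angpt1, Selp, Pdgfrb and Vcam1, some of which blood cells or megakaryocytes can also make. Which cells gave this RNA was not tested. Among stromal and endothelial genes, Cdh5 was at 0 to 0.123 FPKM, Lepr at 0 to 0.134 FPKM, Col1a1 at 0 to 0.126 FPKM and Pdgfra at 0 to 0.0471 FPKM. Cxcl12, the ligand of CXCR4, was at 0.182 to 0.723 FPKM.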

How the data were processed

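RNA-seq values of sorted HSCs were used, from 3 control and 3 IGF1 libraries. Groups came from the treatment labels, and the dose (200 µg/kg) and day (1) from the study's methods. The authors trimmed reads with fastp and quantified genes with RSEM according to the methods, while the labels' processing notes also name HISAT2, StringTie and the build GRCm38 (mm10). The library kit keeps strand, and whether counting used strand is not given in the sources used here. Each library's table, as the authors deposited it, lists 21878 gene symbols with 1 value per symbol, and the unit is not given in the sources used here. The deposited values were taken as FPKM, since they are not whole and rise, within a gene, in whole steps. Whole reads were recovered from the steps for 15617 of 15640 genes above 0 (99.85%, within 0.0001 reads). Totals came to 15003029, 10526084 and 15090863 reads in control replicates 1 to 3 and to 11265127, 10298069 and 11701908 in IGF1 replicates 1 to 3. The scale of these totals is approximate, and counting errors cover sampling of reads only.

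The 10449 genes that reached 1 FPKM in 3 or more libraries entered a 2-sided limma test (limma 3.58.1, R 4.3.3, eBayes with a trend) on log2(FPKM + 1). The changes of low genes are understated on that scale. Calls needed an adjusted p under 0.05 (Benjamini-Hochberg, over all genes tested) together with a fold change over 2, the thresholds of the study, whose own test needs counts. The 9 genes and all lists were chosen with earlier results of these data known, and no list was tested as a set. Named genes were the 9 genes, for each list the called genes of smallest adjusted p, 3 at most, the gene of nearest profile and defining markers of other cell types; genes named beyond this rule are marked as such. Transcript length, GC content (10101 of the genes tested, 96.7%) and positions came from GENCODE M21 (GRCm38), promoters from RefSeq.

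The alternatives were quantile normalization, 75th percentile scaling, no filter or 5 FPKM in 3 libraries, a pseudocount of 0.1 or of 5, library weights, eBayes with no trend, a replicate block, adjusted p alone, removal of length and GC trends, limma voom on recovered reads, and each library left out. Leaving out control replicate 2 together with another scaling, the length and GC step or voom was added after the data were seen. The fit and the recovery of reads were checked on simulated data.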

Additional observations from a re-analysis of the deposited data

How the results depend on the processing

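Of the 9 genes, 8 kept their direction in all 22 alternatives, none of which scaled the libraries to their summed FPKM. The exception was Cd44, at -0.06 on the log2 scale in 6 libraries. It turned to 0.21 with quantile normalization, 0.21 with 75th percentile scaling, 0.04 with library weights, 0.32 with length and GC trends removed and 0.04 without control replicate 2 (-0.12 to 0.04 over the single libraries left out), and, with that library left out as well, to 0.38 with 75th percentile scaling, 0.38 with quantile normalization, 0.52 with length and GC trends removed and 0.08 with voom. The cause was not tested.

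The count of the 9 genes called, 0 in 6 libraries, was 4 with library weights (which gave control replicate 2 a weight of 0.0137 against 1.9 to 3.64 for the others), 1 by adjusted p alone, and 0 to 4 when single libraries were left out, the 4 being without control replicate 2. With that library left out it was 1 under 75th percentile scaling, 1 under quantile normalization, 1 with length and GC trends removed and 4 with voom. The count of the listed adhesion genes called, 9 in 6 libraries, was 2 with a pseudocount of 5, 44 with library weights, 28 by adjusted p alone, 4 with length and GC trends removed, 15 with voom, and 0 to 44 when single libraries were left out. Without control replicate 2 it was 39 under 75th percentile scaling, 43 under quantile normalization, 33 with length and GC trends removed and 53 with voom. Over all genes the count of 691 became 374 with no filter, 223 with a pseudocount of 5, 3435 with library weights, 2130 by adjusted p alone, 313 with length and GC trends removed, 1053 with voom, 3438 without control replicate 2 and 0 without any other library.

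The labels give both groups replicate numbers 1 to 3, but nothing says that a number marks a shared mouse, litter or day, and the deviations of same-numbered libraries correlated at -0.057, -0.05 and 0.006. With the replicate block 0 of the 9 genes, 0 listed adhesion genes and 0 of all genes were called, with 2 of the 9 at an unadjusted p under 0.05; the numbers were not taken as pairs. Each group has 3 libraries, and at 105 to 308 reads Cxcr4 is the gene that depth limits most.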
